A study of Mus musculus with 4 samples.

Results

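The genes described here are 6 markers of cholinergic neurons, taken by symbol from the 19465 features of the probe panel: Chat, Slc18a3, Slc5a7, Ache, Lhx8 and Ngfr. They were chosen with their distribution in these sections already known, so their levels over brain areas are given as a description without a test. All 6 had UMIs (unique molecular identifiers, counts of captured probe molecules) in each of the 4 sections. The data fell into 3 patterns rather than 1. Chat, Slc18a3 and Slc5a7 stood together in the habenula and in a few small patches below it. Lhx8 and Ngfr were close to 0 in the habenula. The lower patches held 178 of 480 Lhx8 and 234 of 633 Ngfr UMIs, and the rest lay elsewhere. Under the rule that defined patches, none of the lower ones was found in HF rep1, the shallowest section. Ache was spread over the whole section and highest in the hypothalamus.

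A cholinergic neuron makes acetylcholine with choline acetyltransferase (Chat), loads it into vesicles with the vesicular acetylcholine transporter (Slc18a3) and takes choline back up through the high-affinity choline transporter (Slc5a7). Acetylcholinesterase (Ache) breaks the transmitter down and is also made by neurons that receive cholinergic input. Lhx8 is a LIM homeobox factor of forebrain cholinergic neurons, and Ngfr is the p75 neurotrophin receptor that cholinergic neurons of the basal forebrain carry. In the mouse forebrain such neurons lie in the medial habenula, as scattered interneurons in the striatum, and in the basal forebrain, which projects to cortex and hippocampus.

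Visium-FFPE spatial transcriptomes were measured in coronal hemi-brain sections from wild-type C57BL/6J males at postnatal day 21. Their dams, 8 weeks old, ate a diet with 2 mg/kg folic acid (median folate, MF) or 20 mg/kg (high folate, HF) from 2 weeks before mating through pregnancy and lactation, and the 2 diets are the groups of the study. Each diet had 2 sections, given as biological replicates: MF rep1, MF rep2, HF rep1 and HF rep2. Visium reads RNA in a grid of spots, each of which can hold several cells of different types.

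Between 3197 and 3598 spots were kept per section, with total UMIs from 34983708 in HF rep1 to 90098381 in MF rep1 and median UMIs per spot from 9286 to 23543.5. Spots were clustered and areas named from marker lists. The habenula was led by Gm5741, Pou4f1 and Gpr151, and the striatum by Adora2a, Sh3rf2 and Penk. The hypothalamus joined a cluster led by Pmch, Npw and Hcrt with one led by Avp, Oxt and Npvf. All 12 habenula markers and all 16 striatal markers were higher inside the area of that name than outside it in each of the 4 sections. The same lists named the areas, with 10 and 13 of these markers among the 50 leading genes. This is therefore no separate check of the names. The plane of section differed. HF rep2 held 34 habenula spots against 60 to 72 in the other sections, 217 striatum spots against 133 to 176, and 98 spots of an unnamed cluster led by Six3, Pvalb and Pln against 40 to 50. HF rep1 held 66 habenula, 133 striatum and 40 Six3-led spots, so by these counts the odd section was HF rep2. Other clusters differed by section as well. A thalamic cluster led by Slitrk6 and Gbx2 held 31, 59, 269 and 19 spots in MF rep1, MF rep2, HF rep1 and HF rep2. The Avp-led hypothalamic cluster held 2, 27, 129 and 99 in that order. The plane of HF rep1 can therefore not be taken as that of the MF sections. Some differences between the diets are also given without HF rep2. UMIs were summed over the spots of an area in each section and scaled to CPM (counts per 1e6 UMIs of that sum). Probes differ in how well they bind, so CPM values were compared between areas and sections and not between genes.

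The promoters of the 3 genes that moved together over areas are printed here because 2 of these genes share 1 locus. Slc18a3 lies at chr14:32462438-32464850 on the minus strand of GRCm38 (GENCODE vM21), within the first intron of Chat-201, which spans chr14:32460914-32465806, and Chat itself runs on the same strand from 32408203 to 32465989. Slc5a7 lies on another chromosome, at chr17:54273590-54299034 on the minus strand. The RefSeq sequences are the 250 bases before each start on GRCm38.p6, 5′ to 3′ on the gene's strand, at chr14:32465910-32466159 for Chat, chr14:32464851-32465100 for Slc18a3 and chr17:54299035-54299284 for Slc5a7. Capitals mark the letters CACGTG, an E-box that reads the same on both strands. The GENCODE model of Chat starts inside its window.
Chat: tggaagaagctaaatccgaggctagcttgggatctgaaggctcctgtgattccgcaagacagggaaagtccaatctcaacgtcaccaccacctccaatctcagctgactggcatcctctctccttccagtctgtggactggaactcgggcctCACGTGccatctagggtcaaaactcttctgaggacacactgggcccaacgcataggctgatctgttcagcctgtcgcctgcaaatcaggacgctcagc
Slc18a3: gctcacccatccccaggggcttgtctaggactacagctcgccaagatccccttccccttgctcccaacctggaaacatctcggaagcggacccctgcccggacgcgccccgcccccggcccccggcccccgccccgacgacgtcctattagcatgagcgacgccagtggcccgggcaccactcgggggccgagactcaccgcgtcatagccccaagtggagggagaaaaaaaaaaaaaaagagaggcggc
Slc5a7: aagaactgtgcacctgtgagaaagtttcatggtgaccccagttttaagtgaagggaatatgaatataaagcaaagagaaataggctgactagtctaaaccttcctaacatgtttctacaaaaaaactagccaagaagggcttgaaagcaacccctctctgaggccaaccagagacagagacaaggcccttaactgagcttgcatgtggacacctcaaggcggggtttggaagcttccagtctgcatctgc

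The windows are unlike in composition. That of Slc18a3 held 21 CpG pairs at 66.0% GC, that of Chat 8 at 54.8%, and that of Slc5a7 1 at 45.6%, where the median over all promoters was 6 pairs and 7.87% of promoters had fewer than Slc5a7. CACGTG lay 98 bases before the start of Chat and 199 before that of Ache, and was in 6.02% of 32851 promoters of the same length. TAATTA, a core to which LIM homeobox factors bind, was in none of the 6 windows and in 4.84% of all promoters. The window of Ache lies inside the GENCODE model of that gene, which starts earlier than the RefSeq one, and the GENCODE models of Lhx8 and Ngfr start inside their windows. The remaining members lie at chr5:137287519-137294466 (Ache, plus strand), chr3:154306294-154330659 (Lhx8, minus strand) and chr11:95568818-95587735 (Ngfr, minus strand).

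Chat, Slc18a3 and Slc5a7 were found together in few spots. Of 13452 spots, 275 (2.04%) held UMIs of at least 2 of the 3 genes, here called co-detection spots. With every spot thinned to 5000 UMIs and shallower spots left out, 90 of 12710 did (0.708%, 95% Clopper-Pearson interval 0.570 to 0.870). Such intervals cover counting error alone. By section the thinned share was 0.641% in MF rep1, 0.342% in MF rep2, 0.484% in HF rep1 and 1.34% in HF rep2, against 3.002, 1.15, 1.13 and 2.78% without thinning. HF rep2 therefore had the highest share at 1 common depth, and MF rep1, the deepest section, the highest without it. Given Chat in a thinned spot, Slc18a3 was there in 31.1% of cases, against 2.31% of spots without Chat.

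**Figure D1:**
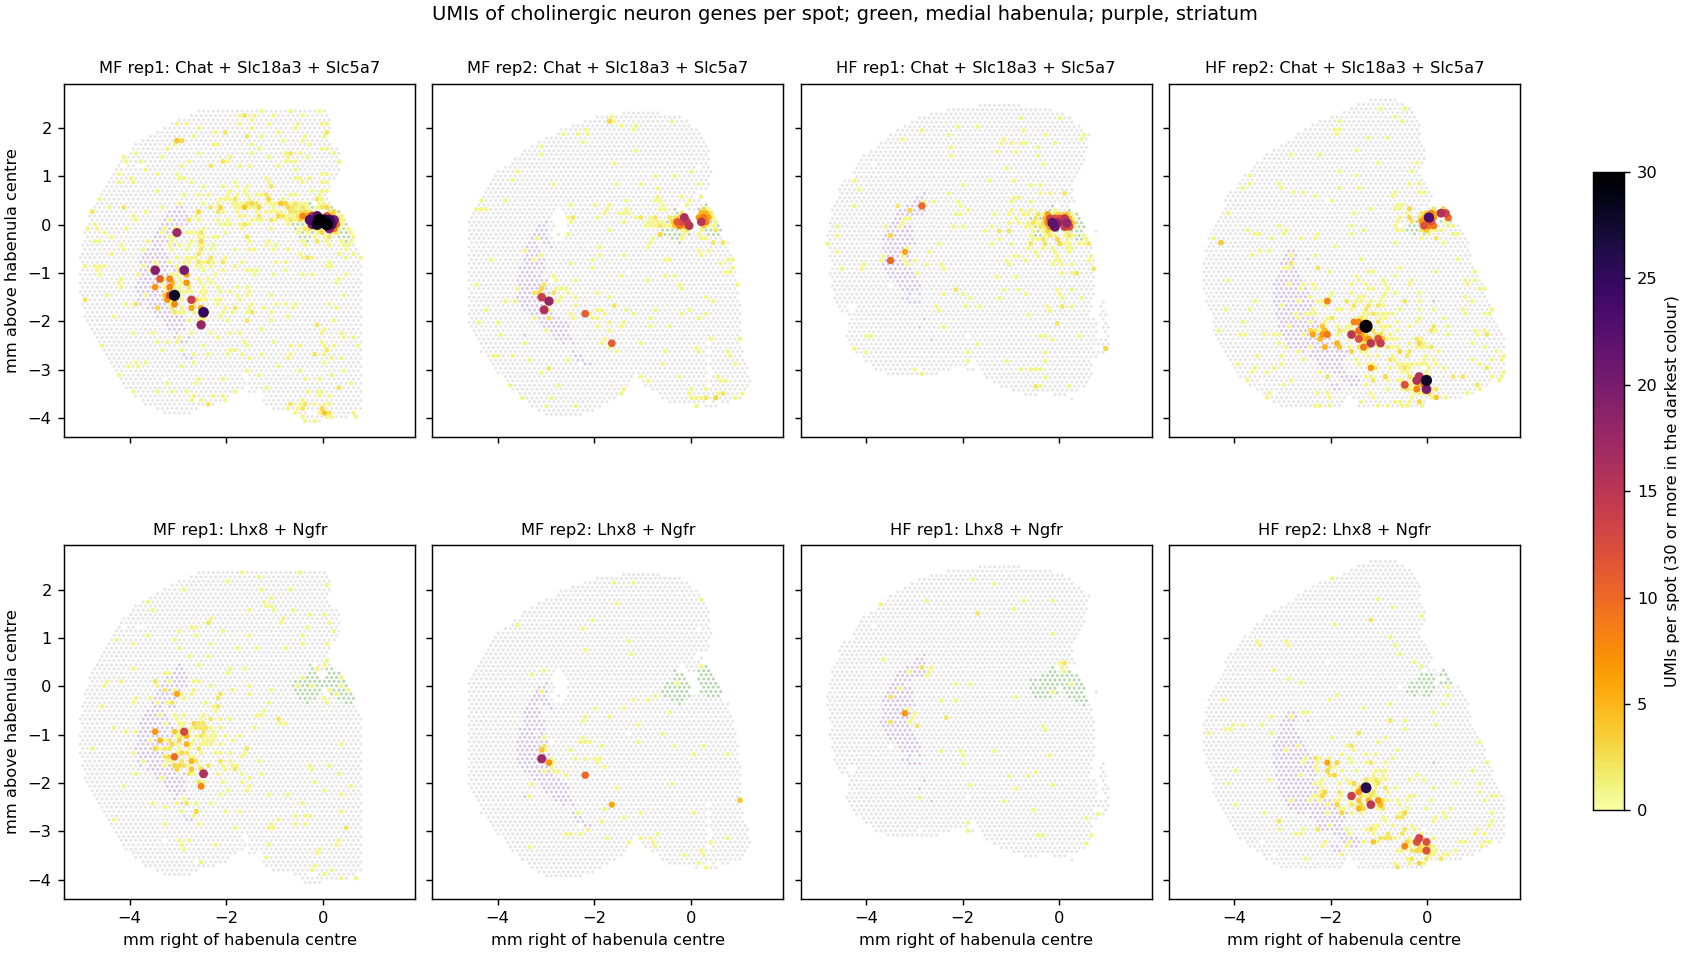
Spots of the 4 sections, in mm from the centre of the habenula, coloured by summed UMIs per spot of Chat, Slc18a3 and Slc5a7 (top) and of Lhx8 and Ngfr (bottom), with habenula spots in green and striatum spots in purple. In each section the 3 genes of the top row cluster at the habenula, where the bottom row is nearly empty, and HF rep2 has further patches of both rows low in the section.

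The Moran's I values deposited for each feature, a score of how far neighbouring spots resemble each other, put this clustering in numbers. Chat had 0.213, 0.164, 0.177 and 0.190 in MF rep1, MF rep2, HF rep1 and HF rep2, where the median over all features was 0.0104 to 0.0166. Ngfr had 0.0770, 0.0379, 0.0329 and 0.233, so HF rep2 stood above the other sections. Lhx8 had 0.179, 0.0508, 0.00102 and 0.151, with HF rep1 below the median of all features.

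The habenula had the highest levels of Chat, Slc18a3 and Slc5a7 in the section. Chat measured 38.7 and 44.6 CPM in MF rep1 and MF rep2 and 55.3 and 62.4 CPM in HF rep1 and HF rep2, from 111, 54, 79 and 45 UMIs. Slc18a3 measured 64.1, 61.1, 65.1 and 99.9 CPM in the same order, with HF rep2 well above 3 sections that lay close together. Slc5a7 measured 42.5, 40.5, 52.5 and 56.9 CPM. For each of the 3 genes the lowest habenula value was above the highest value of the next area, the striatum, whose means were 10.4, 11.4 and 7.41 CPM against 50.3 ± 10.7, 72.6 ± 18.3 and 48.1 ± 7.88 CPM in the habenula (SD, n = 4). From the striatum down, neighbouring areas overlapped in their section values.

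The habenula held a large share of these transcripts in little tissue. It held 31.0, 41.5, 62.2 and 17.4% of all Chat UMIs of MF rep1, MF rep2, HF rep1 and HF rep2 in 2.00, 1.81, 2.06 and 1.02% of their spots. At 5000 UMIs per spot, Chat was detected in 15.3, 10.0, 15.2 and 23.5% of habenula spots, and in 37.5, 36.7, 37.9 and 52.9% before thinning. The thinned share over the cortex of all sections, where few cells make the transcript, was 0.417% for Chat, 1.12% for Slc18a3 and 0.450% for Slc5a7, all below the habenula. The forebrain factor and the neurotrophin receptor were not part of the habenular profile: Lhx8 had 4 UMIs and Ngfr 7 in all 232 habenula spots. Of 35 thinned habenula spots with Chat, 0 held Lhx8 and 0 held Ngfr, while 48.6% held Slc18a3.

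A finer clustering split the habenula into 105 spots led by Gm5741, Chrnb4 and Pou4f1 and 127 led by Gpr151, Pou4f1 and Prokr2. The members and the pathway genes below were kept out of the clustering, but it used other transcripts of the same spots, so the differences are given without a test. Chat measured 72.6, 77.9, 89.7 and 89.9 CPM in the Chrnb4-led spots of MF rep1, MF rep2, HF rep1 and HF rep2, against 2.86, 10.7, 13.9 and 4.07 CPM in the Gpr151-led spots, the latter from 20 UMIs in all. Slc18a3 followed with 118 ± 18.4 against 14.0 ± 1.87 CPM and Slc5a7 with 77.1 ± 6.44 against 10.9 ± 5.12 CPM (SD, n = 4). The 3 genes were therefore concentrated in 1 of the 2 clusters in every section. Ache went the other way, with 118 ± 17.4 CPM in the Chrnb4-led and 162 ± 24.6 CPM in the Gpr151-led spots, higher in the latter in 4 of 4 sections. Prima1, which anchors acetylcholinesterase in the membrane, went with Chat (113 ± 15.0 against 54.7 ± 3.95 CPM), as did Acly, an enzyme that makes acetyl-CoA (335 ± 41.2 against 204 ± 43.7 CPM). The M2 muscarinic receptor Chrm2 and the vesicular glutamate transporter Slc17a6 were lower in the Chrnb4-led spots, with 11.1 ± 8.00 against 95.5 ± 62.1 CPM and 259 ± 26.2 against 372 ± 22.9 CPM.

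**Figure D2:**
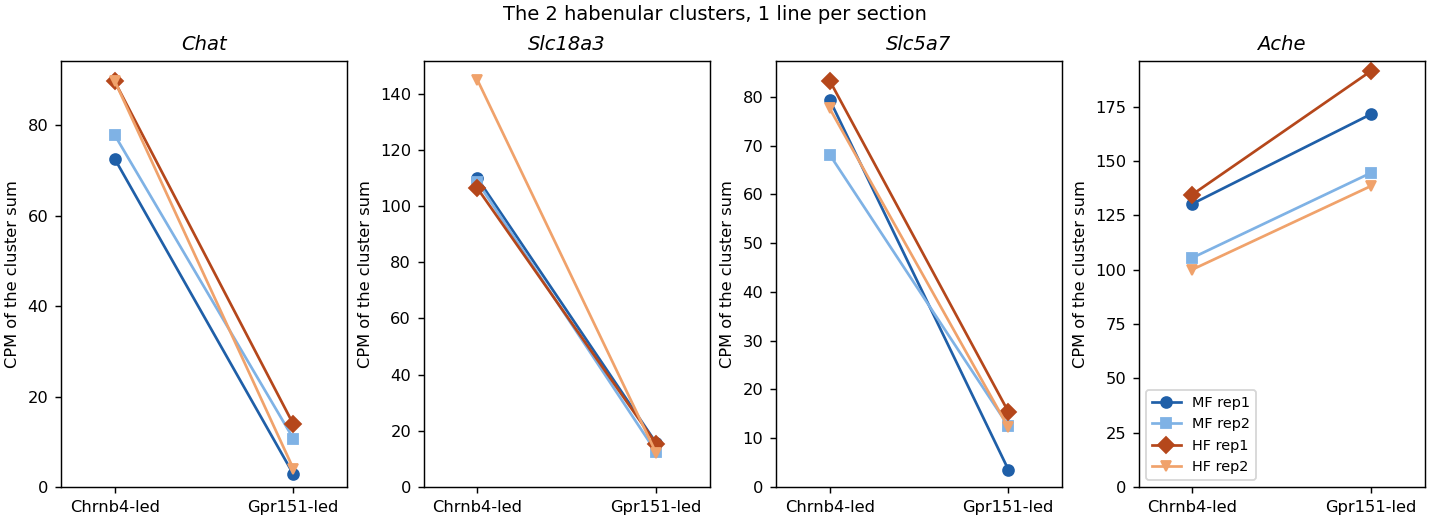
CPM of the summed UMIs of the Chrnb4-led and the Gpr151-led habenular cluster for Chat, Slc18a3, Slc5a7 and Ache, with 1 line per section. The first 3 genes drop from the Chrnb4-led to the Gpr151-led spots in all 4 sections, while Ache climbs.

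In the striatum the same genes were sparse. Chat measured 10.3, 7.49, 19.5 and 4.42 CPM in MF rep1, MF rep2, HF rep1 and HF rep2, from 39, 12, 17 and 10 UMIs. Slc18a3 measured 7.89, 11.2, 16.04 and 10.6 CPM and Slc5a7 4.47, 4.37, 13.7 and 7.07 CPM, so HF rep1 was the highest section for each of the 3. Chat was detected in 6.52% of 675 striatum spots (95% Clopper-Pearson interval 4.78 to 8.65) and in 3.43% of 641 thinned ones. Lhx8 measured 9.46, 3.75, 10.3 and 9.28 CPM, with MF rep2 low at 6 UMIs. The striatum was among the highest areas for this gene (8.20 ± 3.003 CPM, SD, n = 4), while the highest Lhx8 value in the habenula was 1.04 CPM. Ngfr had 23 UMIs in all striatum spots, and 7 of the 8 in HF rep1 came from 1 spot.

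Lhx8 was often found where Chat was found in the striatum. At 5000 UMIs per spot, 31.8% of 22 striatum spots with Chat held Lhx8, against 2.75% of those without. Slc18a3 was in 40.9% of the 22 and Ache in 68.2%. The striatal spot with the most Ache in MF rep1 held 23 UMIs of it, with 13 of Chat, 7 of Lhx8 and 0 of Ngfr. A striatal spot of HF rep1 showed the reverse, with 7 UMIs of Ngfr, 3 of Chat, 2 of Slc5a7 and 0 of Lhx8.

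The hypothalamus split the sections. Chat measured 2.88, 1.54 and 0.385 CPM in MF rep1, MF rep2 and HF rep1 and 17.5 CPM in HF rep2. Slc18a3 measured 4.98, 1.54, 1.93 and 34.1 CPM, and Slc5a7 2.99, 1.16, 1.35 and 14.9 CPM. Lhx8 measured 1.33, 0.579, 0.578 and 15.5 CPM, and Ngfr 3.99, 1.93, 1.93 and 25.8 CPM. HF rep2 stood above the other 3 sections for all 5 of these genes, from 81 to 185 UMIs per gene. Ache ran against them, with 231, 241, 253 and 195 CPM, lowest in HF rep2. Other values set HF rep2 apart there and were picked for that. Nkx2-1 measured 34.4, 29.3, 26.4 and 4.61 CPM and Isl1 21.8, 23.0, 25.1 and 7.92 CPM in the same order. At the finer clustering a hypothalamic cluster led by Cga and Agrp held 21, 29, 24 and 2 spots. The hypothalamus sums therefore do not cover the same tissue in each section. Of 28 thinned hypothalamus spots with Chat, pooled over the sections, 28.6% held Lhx8 and 35.7% Ngfr, against 1.39 and 2.00% of those without. HF rep2 weighs most in these shares, with 95 Chat UMIs against 26, 8 and 2 in MF rep1, MF rep2 and HF rep1 before thinning. In the white matter spots HF rep2 was also the highest, but the sections were graded, with MF rep1 second. Lhx8 measured 6.54, 3.74, 1.65 and 14.1 CPM there and Ngfr 6.19, 3.20, 2.20 and 13.2 CPM.

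**Figure D3:**
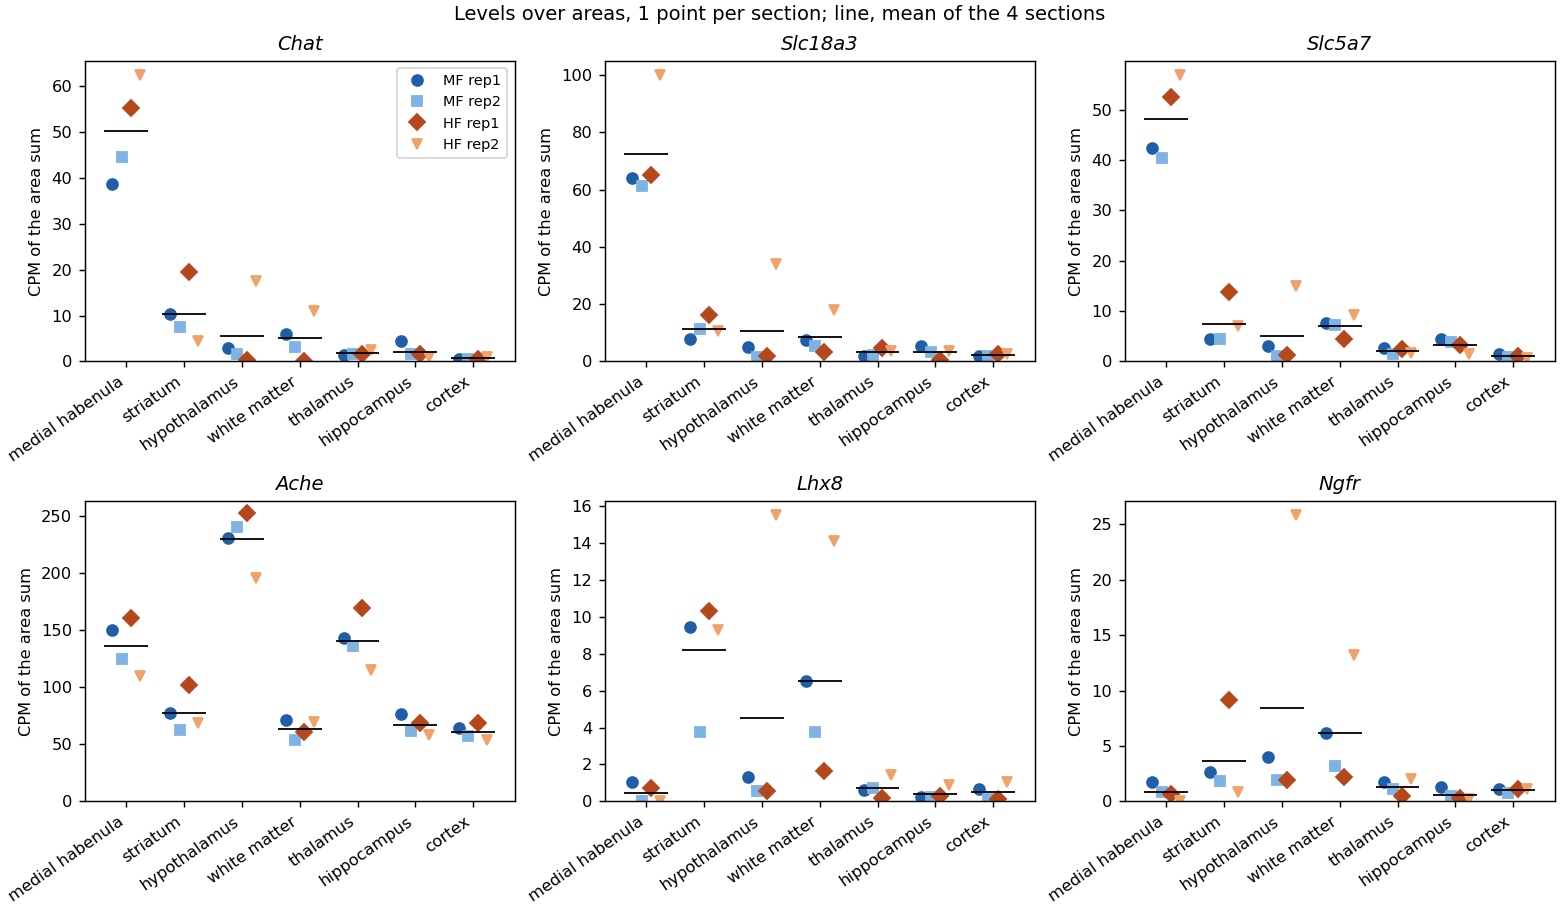
CPM of each gene in 7 areas, with 1 point per section and a line at the mean of the 4 sections. Chat, Slc18a3 and Slc5a7 are highest in the habenula in every section, Lhx8 and Ngfr have high points for HF rep2 in hypothalamus and white matter, and Ache is highest in the hypothalamus.

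To describe where in the section these genes lay without the area names, co-detection spots within 250 µm of each other were joined, and groups of at least 5 were called patches. This rule was set after the spots had been seen. Of 13 patches, 5 lay at the habenula, 7 lay at least 1 mm below its centre, and 1 of 6 spots in MF rep1 lay in hippocampus and thalamus. The habenular patches held 47 co-detection spots in MF rep1, 10 and 14 in MF rep2, 25 in HF rep1 and 22 in HF rep2. Of the 47 in MF rep1, 28 were assigned to the habenula, 14 to the hippocampus, 3 to the thalamus and 2 to the choroid plexus. With these spots thinned to 5000 UMIs, 9 remained in MF rep1, 2 and 3 in MF rep2, 8 in HF rep1 and 10 in HF rep2, so the lead of the deepest section was not kept at 1 depth. The lower patches were unevenly spread over the sections, with 3 in MF rep1 (5, 13 and 5 spots), 1 in MF rep2 (7 spots), 0 in HF rep1 and 3 in HF rep2 (28, 9 and 13 spots). The rule used unthinned spots, and HF rep1 was the shallowest section, with a median of 9286 UMIs per spot. Its striatum held 5 co-detection spots that formed no patch. At 5000 UMIs per spot, 4 of 104 striatum spots in HF rep1 (3.85%) were co-detection spots. The striatal share was 1.14, 1.35 and 1.88% in MF rep1, MF rep2 and HF rep2, so the 0 counts patches and not spots. In HF rep1 the habenular patch alone held 50.9% of the UMIs of the 3 genes in 1.97% of the spots.

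HF rep2 held 50 co-detection spots in its lower patches, against 23 in MF rep1 and 7 in MF rep2. After thinning, 13, 6 and 9 remained in its patches, 1, 6 and 2 in those of MF rep1 and 3 in that of MF rep2. The largest, patch 2, was centred 2219 µm below and 1258 µm lateral to the habenula and held 23.7% of the section's Chat, Slc18a3 and Slc5a7 UMIs in 2.63% of its spots. Its 28 co-detection spots were assigned to white matter (15), hypothalamus (9), the cluster led by Six3, Pvalb and Pln (3) and the cluster led by Ccdc42 and Spint1 (1). Patch 4 lay near the midline at the base of the section, 3285 µm below and 163 µm lateral to the habenula, with all 13 co-detection spots in the hypothalamus and 15.7% of the UMIs of the 3 genes. Patch 3, 2262 µm below and 2221 µm lateral, held 6 striatum and 3 white matter spots and 4.96% of those UMIs. No area in this clustering carried a basal forebrain name, so these patches are described by position and genes.

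The lower patches differed from the habenular ones in what went with the 3 transmitter genes. The patches were picked by those genes, so their levels only describe the choice, with Chat at 28.3 to 68.7 CPM in the 5 habenular and 29.7 to 63.9 CPM in the 7 lower patches. Lhx8 had 0 to 0.871 CPM in the habenular patches, 5 UMIs in all, and 26.7 to 48.2 CPM in the lower ones, 178 UMIs in all. Ngfr had 0 to 2.54 CPM against 2.72 to 94.9 CPM. Gbx1, a homeobox factor of the ventral forebrain, had 0 UMIs in the habenular and 20 in the lower patches. It had 0 to 8 UMIs per lower patch, with more than 3 in only 2 of the 7. In the other direction, Pou4f1, a habenular transcription factor, had 120 to 285 CPM against 0 to 3.11 CPM, and Tac2, the neurokinin B precursor of the medial habenula, 696 to 1565 against 17.8 to 88.3 CPM. Slc32a1, the vesicular GABA transporter, had 7.63 to 15.0 CPM in the habenular and 55.4 to 125 CPM in the lower patches.

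Ngfr was uneven among the lower patches. In HF rep2 it measured 84.6 CPM in patch 2 and 94.9 CPM in patch 4 but 2.72 CPM, from 1 UMI, in patch 3, which was mostly striatal spots. Lhx8 measured 42.3, 48.2 and 38.03 CPM in those patches, so all 3 carried it. In MF rep1, patch 4 with 7 striatum spots of 13 had 14.4 CPM of Ngfr, and its other lower patches had 41.5 and 49.3 CPM. The spot with the most Slc18a3 of all sections, in patch 2 of HF rep2, held 20 UMIs of it with 14 of Chat, 19 of Ngfr, 7 of Lhx8, 6 of Slc5a7 and 6 of Ache. The habenular spot with the most Chat, in MF rep1, held 13 UMIs of it with 11 of Slc18a3, 12 of Slc5a7, 0 of Lhx8 and 0 of Ngfr.

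**Figure D4:**
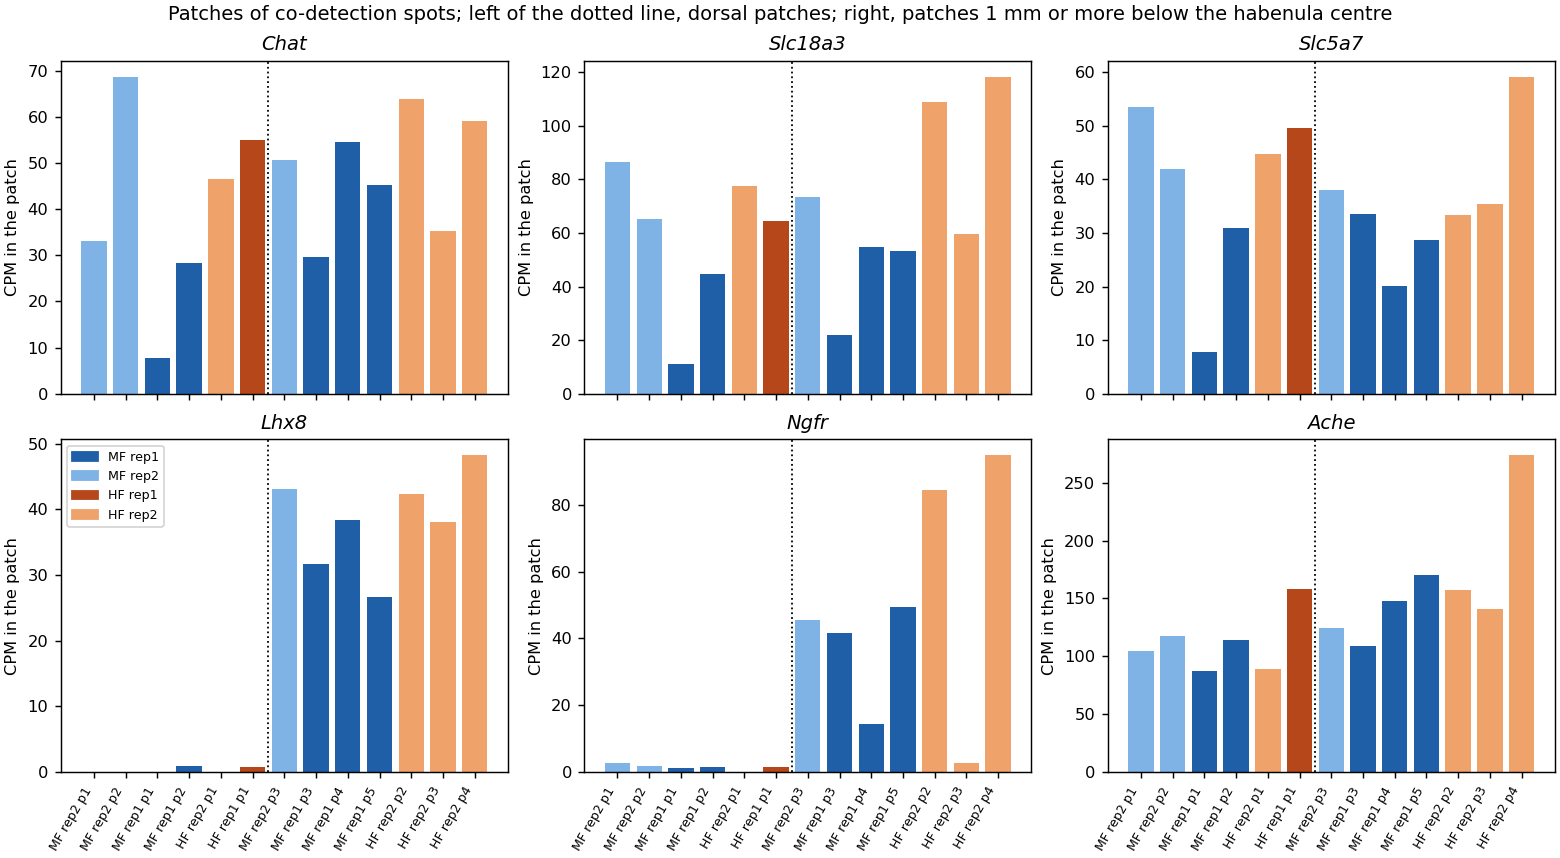
CPM in each patch of co-detection spots for Chat, Slc18a3, Slc5a7, Lhx8, Ngfr and Ache, coloured by section, with habenular and other dorsal patches left of the dotted line and patches 1 mm or more below the habenula right of it. Chat, Slc18a3, Slc5a7 and Ache fill both sides, while Lhx8 and Ngfr stay at or below 0.871 and 2.54 CPM on the left and reach 48.2 and 94.9 CPM on the right.

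Ache was not limited to the areas of the other members. It measured 230 ± 24.8 CPM in the hypothalamus, 141 CPM in the thalamus, 136 ± 23.3 CPM in the habenula and 77.6 ± 17.4 CPM in the striatum (SD, n = 4). Of these listed areas, the hypothalamus at 195 to 253 CPM lay above the thalamus at 115 to 169 CPM. The habenula at 110 to 160 CPM overlapped with the thalamus and lay above the striatum at 62.4 to 102 CPM. In the order of all areas, with those not listed here, neighbours overlapped in their section values apart from the lowest. That was the choroid plexus at 33.8 CPM, which lay below the cortex at 60.7 ± 6.65 CPM. In the whole section 54.1% of thinned spots with Lhx8 held Ache, against 38.6% of those without, and 4926 of 12710 thinned spots held it. Ngfr was highest in the cluster led by Six3, Pvalb and Pln, at 8.18 to 13.6 CPM (11.5 ± 2.37, SD, n = 4), followed by choroid plexus at 8.77 ± 7.82 CPM from 12 UMIs, and these neighbours overlapped. For Lhx8 the striatum and the Ccdc42-led cluster were first, at 8.20 and 8.30 CPM, and overlapped as well.

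The likeness of the members over areas was measured as Pearson's r of log2(CPM + 1) over 55 area sums, which share libraries, depth and plane, so it is a description. Chat had r = 0.867 with Slc18a3 and 0.808 with Slc5a7, and Slc18a3 had 0.752 with Slc5a7. Lhx8 and Ngfr had 0.521 with each other, and Lhx8 had 0.417 with Chat. Ngfr had 0.101 with Chat and Ache 0.105 with Lhx8. Among 11827 features, those most like Chat were Irx2, Pdzd8, Zdhhc18, Necab2 and Tex2 (r = 0.710 for Irx2). Those most like Slc18a3 were Nfam1, Kctd8, Sik1, Chrnb4 and Zdhhc18 (0.710 for Nfam1), and those most like Slc5a7 were Gfra1, Mvb12b, Vav2, Prima1 and Rap1gap (0.759 for Gfra1). Ache stood with Flywch1, Dzank1, Nrsn2, Rit2 and Galr1 (0.926 for Flywch1). Lhx8 stood with Meis1, Sytl5, Penk, Drd2 and Gpr83 (0.664 for Meis1), of which Penk and Drd2 are striatal projection neuron genes, and Ngfr with Six3, Asah2, Rassf8, Xrcc3 and Smim1 (0.667 for Six3).

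A list of 23 further genes of the cholinergic pathway gave the surroundings. In the habenula 2 of them had their highest mean, Acly at 283 ± 20.1 CPM and Prima1 at 87.8 ± 13.8 CPM (SD, n = 4), although both overlapped with the next area. The M4 muscarinic receptor Chrm4 was highest in the striatum at 23.8 ± 2.86 CPM, with no overlap with the next area, the cortex at 13.7 CPM. The M5 receptor Chrm5 had its highest mean in the hypothalamus (8.20 ± 1.63 CPM). Its range there, 6.27 to 10.2 CPM, overlapped with the striatum, which had 9.16 CPM in HF rep1. White matter had the highest mean for the choline transporter-like gene Slc44a1 at 369 ± 39.7 CPM and for Pcyt1a, an enzyme of phosphatidylcholine synthesis, at 44.3 ± 3.65 CPM. For Pcyt1a the habenula overlapped with it, at 39.3, 43.0, 39.9 and 54.1 CPM in MF rep1, MF rep2, HF rep1 and HF rep2. Slc17a6 was second highest in the habenula, at 307 ± 24.5 CPM, after the thalamus at 465 ± 41.7 CPM, without overlap.

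The diets were compared with the section as the replicate, using the quasi-likelihood test of edgeR over all features, with a call at an adjusted p under 0.05 and at least 1.2-fold. No member was called in the whole section or in any of 6 areas. In the whole section 0 of 6 members were called, where 0 of 14971 features (0%) were. At an unadjusted p under 0.05 edgeR counted 1020 features there, and DESeq2 called 23, none of them members. The median log2 difference, HF minus MF, was 0.56 over the members and 0.00 over all features. Chat measured 3.97 and 3.06 CPM in MF and 3.63 and 6.09 CPM in HF, Slc18a3 5.95 and 4.88 against 5.92 and 11.3 CPM, and Ngfr 2.63 and 1.89 against 1.54 and 6.16 CPM. For these 3 the HF rep2 section was the highest and HF rep1 lay within or below the MF range. In 1 member, Slc5a7, both HF sections were above both MF sections, at 4.43 and 5.32 against 4.38 and 3.58 CPM, where 21.8% of features lay that way.

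The sizes in the whole section were uncertain. Slc18a3 differed by 0.66 ± 0.30 on the log2 scale (SE, edgeR adjusted p = 0.726), Lhx8 by 0.82 ± 0.81 (adjusted p = 0.834), Ngfr by 0.76 ± 0.57 (adjusted p = 0.786) and Ache by 0.06 ± 0.16 (adjusted p = 0.946). Lhx8 measured 2.06 and 1.202 CPM in MF but 0.572 CPM in HF rep1 and 5.25 CPM in HF rep2, so the MF sections lay between the HF ones. Without HF rep2 its difference was -1.61 and without HF rep1 1.60, both calls by edgeR in which the lone section was assumed to vary like the others. Slc18a3 and Ngfr were called without HF rep1 as well, at 1.05 and 1.40, and were 0.08 and -0.61 without HF rep2. Ache was called without HF rep2, at 0.29, and was -0.21 without HF rep1. HF rep2 is also the section with the most co-detection spots in lower patches, which MF rep1 and MF rep2 had as well. In sums over an area, fewer cells of a type and less RNA per cell cannot be told apart.

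In the habenula the 3 transmitter genes were higher in both HF sections than in both MF sections, for Slc18a3 only narrowly in HF rep1. Slc18a3 measured 64.1 and 61.1 CPM in MF, 65.1 CPM in HF rep1 and 99.9 CPM in HF rep2, so its difference rested on HF rep2. Chat differed by 0.50 ± 0.20 on the log2 scale (edgeR adjusted p = 0.849), Slc18a3 by 0.31 ± 0.19 (adjusted p = 0.926) and Slc5a7 by 0.37 ± 0.20 (adjusted p = 0.908). None of the 4 members tested there was called, where 7 of 11182 features (0.0626%) were. The non-overlap of 3 of 4 members compares with 18.4% of all features higher and 16.3% lower in both HF sections. In the Chrnb4-led spots alone Chat still lay higher in both HF sections, while the diets overlapped for Slc5a7, with 79.4 and 68.2 CPM in MF and 83.3 and 77.6 CPM in HF, and for Slc18a3, with 110 and 109 CPM against 106 and 145 CPM. The share of Chrnb4-led spots in the habenula was 31 of 72, 25 of 60, 30 of 66 and 19 of 34 in MF rep1, MF rep2, HF rep1 and HF rep2, and the part of that share in the levels was not tested. Slc18a3 in the habenula turned to -0.27 with every spot thinned to 5000 UMIs.

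In the striatum 5 members were tested and 0 called, where 6 of 11412 features (0.0526%) were. Slc5a7 had the clearest separation, 4.47 and 4.37 CPM in MF against 13.7 and 7.07 CPM in HF, a log2 difference of 1.02 ± 0.43 (edgeR adjusted p = 0.733) from 7 to 17 UMIs per section. Both HF sections were above both MF sections in 1 of the 5 members, where 17.9% of features were. In the hippocampus 3 members were tested and 0 called, where 27 of 12450 features (0.217%) were. Slc5a7 ran the other way there, with 4.47 and 3.93 CPM in MF against 3.30 and 1.53 CPM in HF (log2 difference -0.89 ± 0.41, edgeR adjusted p = 0.586), and 20.3% of features were lower in both HF sections. Hippocampal spots within 1.5 mm of the habenula had more Slc5a7 than farther ones in all 4 sections, at 6.42 against 2.97, 4.85 against 2.84, 4.08 against 2.19 and 2.69 against 0.424 CPM in MF rep1, MF rep2, HF rep1 and HF rep2, a split made after seeing the data. These values rest on 25 against 15, 10 against 5, 8 against 3 and 6 against 1 UMIs. The part of distance in the difference between the diets was not tested. Slc18a3 in the hippocampus measured 5.37 and 3.40 against 0.300 and 3.49 CPM (log2 difference -1.12 ± 0.53, edgeR adjusted p = 0.599), where the low HF rep1 value rests on 1 UMI, and it was called at -3.87 without HF rep2, with that value as the lone HF section.

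In the hypothalamus the members had large differences that rested on 1 section. That section, HF rep2, also differed in Nkx2-1, Isl1 and the spots of the Cga-led cluster, as given above. The part of the plane in these differences was not tested. Slc18a3 differed by 2.31 ± 0.96 on the log2 scale (edgeR adjusted p = 0.747), Ngfr by 2.12 ± 0.88 (adjusted p = 0.747), Chat by 1.92 ± 1.01 (adjusted p = 0.761) and Slc5a7 by 1.83 ± 0.85 (adjusted p = 0.761). None of 5 members tested was called, where 0 of 13010 features (0%) were, with 864 features at an unadjusted p under 0.05 and 8 called by DESeq2, none of them members. In no member were both HF sections above both MF sections, where 21.9% of features were. Without HF rep2 the differences were -0.94 for Slc18a3, -0.75 for Ngfr, -2.59 for Chat and -0.78 for Slc5a7. The lone HF section was then HF rep1, with 10, 10, 2 and 7 UMIs of these genes, so the value for Chat lies near the floor. Without HF rep1 the differences were 3.19, 2.98, 2.85 and 2.67.

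In the thalamus Slc18a3 measured 1.76 and 2.31 CPM in MF against 4.73 and 3.72 CPM in HF (log2 difference 1.11 ± 0.29, edgeR adjusted p = 0.584). Of 5 members tested 0 were called, where 0 of 13375 features (0%) were, with 946 at an unadjusted p under 0.05 and 5 called by DESeq2, none of them members. Without HF rep2, Slc18a3 was called at 1.25. Chat and Slc18a3 were higher in both HF sections, where 20.5% of features were, and 0 were lower in both, where 17.7% were. In the cortex 4 members were tested and 0 called, where 22 of 13183 features (0.167%) were, and 1 of them, Slc18a3, was higher in both HF sections, where 16.1% of features were. Ache measured 64.1 and 56.9 against 68.3 and 53.7 CPM in the cortex and 143 and 136 against 169 and 115 CPM in the thalamus. In both areas the HF sections lay on either side of the MF sections, and in the thalamus Ache was called without HF rep1 and without HF rep2.

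The 23 further pathway genes gave 0 calls by edgeR in the whole section and in the 6 areas. Between 14 and 23 of them were tested per area, and the lowest adjusted p was 0.213, for Prima1 in the hippocampus. At an unadjusted p under 0.05 there were 0 higher and 2 lower of 23 in the HF sections over the whole section, where 6.81% of all features were under it. There were 0 and 2 of 18 in the striatum (6.50% of all features), 0 and 0 of 14 in the habenula (5.59%) and 1 and 2 of 17 in the cortex (8.30%). There were 1 and 5 of 17 in the hippocampus (8.43%), 2 and 3 of 20 in the thalamus (7.07%) and 1 and 0 of 20 in the hypothalamus (6.64%). The genes that lay lower over the whole section were Slc44a1, at 154 and 158 CPM in MF and 132 and 123 CPM in HF, and Bche, butyrylcholinesterase, at 7.38 and 7.26 against 4.89 and 4.94 CPM. They have an edgeR adjusted p of 0.696 and were picked here for that unadjusted p.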

How the data were processed

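Probe-based Visium-FFPE libraries of 4 coronal sections, 2 per diet, were analysed. The authors made the deposited UMI counts per feature and spot with Space Ranger 2.0.0 on mm10, without normalization, and a table of Moran's I, a score per feature per the file headers. The p-values and mean signals in that table were not used. Section totals ran from 34983708 to 90098381 UMIs, and MF rep1 was the deepest.

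Spots needed 500 UMIs and 250 genes, and 30 principal components of 2000 variable genes gave Leiden clusters at resolution 1 or 2 (leidenalg 0.10.2, igraph 0.11.9, scikit-learn 1.9.0, Python 3.11.15), with the members, their pathway list and immediate early genes kept out. A cluster took the area with most of a marker list among its 50 leading genes. Counts were summed per area and section and tested with edgeR 4.0.16 (R 4.3.3; TMM, filterByExpr, quasi-likelihood, Benjamini-Hochberg over all features, 1.2-fold), which was tested on simulated data first. Section numbers came from the labels. No block was used in the main fit because the methods of the study describe none. Deviations of same-numbered sections had r = -0.21 in the whole section. With 2 sections per diet the crossed pairing has the opposite sign, so this value cannot decide whether sections shared a batch. Alternatives were DESeq2 1.42.0, the replicate block as numbered or crossed, no filter, no TMM, spots thinned to 5000 UMIs, resolution 2 and each section left out. An exact test with so few sections cannot reach 0.05. Named genes are the members, pathway genes called or highest in a described area, the 5 features most like each member and the leading genes of areas; other genes named for the patches and clusters were chosen after their values were seen. Members and lists were chosen with earlier results of these data known. Doublets do not apply to spots. Histology was not used here. Some genes are not reported here.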

Additional observations from a re-analysis of the deposited data

Results flagged for a closer look

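Among 47 sets of 4 sections examined, 10 had 1 section far from the others by Dixon's ratio, where chance gives about 1 in 20 for a single set. The sets share sections and spots, and areas are parts of the whole section, so the 2 figures make no test. HF rep2 accounted for 8 of the 10. In the hypothalamus it had 17.5 CPM of Chat (others 0.385 to 2.88), 34.1 of Slc18a3 (1.54 to 4.98), 14.9 of Slc5a7 (1.16 to 2.99), 15.5 of Lhx8 (0.578 to 1.33) and 25.8 of Ngfr (1.93 to 3.99). Slc18a3 was also apart in HF rep2 in the whole section, at 11.3 CPM (others 4.88 to 5.95), and in the habenula, at 99.9 CPM (61.1 to 65.1). Lhx8 in the hippocampus of HF rep2 was 0.872 CPM (0.224 to 0.300) from 4 UMIs. MF rep2 was apart for Lhx8 in the striatum, at 3.75 CPM (9.28 to 10.3), and for Ngfr in the cortex, at 0.728 CPM (1.12 to 1.16), each from 6 UMIs. HF rep2 held fewer habenula and more striatum spots than the other sections, and the part of the plane in these values was not tested.

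Slc5a7 was called in no area, but its sections lay in opposite orders in different areas. Both HF sections were above both MF sections in the striatum (log2 difference 1.02) and in the habenula (0.37), and below both in the hippocampus (-0.89). With edgeR its adjusted p was 0.733, 0.908 and 0.586 in these areas, and the difference between areas was not tested.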

How the results depend on the processing

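No member was called in 68 of 76 alternatives, as in the reported fits. Few features of any kind were called, so this says little about stability. In the hypothalamus 3 members (Slc18a3, Lhx8 and Ngfr) were called with no filter on low counts, and 4 with the replicate numbers crossed in the block, a pairing added after the data were seen, under which edgeR called 11 features in the whole section and 358 in the hypothalamus. With the replicate block as numbered 0 members were called in the whole section and in each area. With each section left out in turn, edgeR called 0 to 4 members in the whole section (4 without HF rep1, 2 without HF rep2), 0 to 1 in the hippocampus, 0 to 2 in the thalamus and 0 to 5 in the hypothalamus (5 without HF rep1), and 0 in the striatum, habenula and cortex. The lone section of a diet was then assumed to vary like the others, and the cause of these changes was not tested. Over all features, 0 were called in the whole section with all 4 sections, 0 to 1166 with 1 left out and 0 to 23 under the other alternatives. These counts were 6, 11 to 179 and 3 to 35 in the striatum, 7, 6 to 141 and 4 to 38 in the habenula, 22, 25 to 824 and 18 to 134 in the cortex, 27, 9 to 598 and 5 to 145 in the hippocampus, 0, 3 to 1291 and 0 to 153 in the thalamus, and 0, 0 to 518 and 0 to 358 in the hypothalamus.

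Of 154 log2 differences under alternatives, 130 kept direction and side of the threshold, 16 passed it and 8 changed sign. Leaving out a section gave -1.61 to 1.60 for Lhx8, -0.61 to 1.40 for Ngfr and -0.21 to 0.29 for Ache in the whole section. In the hypothalamus it gave -2.59 to 2.85 for Chat, -0.94 to 3.51 for Slc18a3, -0.78 to 2.78 for Slc5a7 and -0.75 to 2.98 for Ngfr. The value of -2.59 for Chat rests on 2 UMIs in HF rep1 as the lone HF section. Slc18a3 in the habenula was -0.27 with thinned spots. Without HF rep2 the mean hypothalamus levels were 1.60 in place of 5.58 CPM for Chat, 2.82 in place of 10.6 CPM for Slc18a3, 1.83 in place of 5.11 CPM for Slc5a7, 0.8286 in place of 4.49 CPM for Lhx8 and 2.61 in place of 8.41 CPM for Ngfr. With thinned spots the habenula means were 38.8 in place of 50.3 CPM for Chat and 39.6 in place of 48.1 CPM for Slc5a7. Co-detection spots were 2.04% of spots unthinned and 0.708% thinned. Depth limits the sparse areas: Lhx8 and Ngfr in the habenula, Chat in the cortex and Lhx8 in the hypothalamus did not pass the filter on low counts.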
